A study of Arabidopsis thaliana with 10 samples.

Results

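The genes described here encode the enzymes of the Calvin cycle and of photorespiration in Arabidopsis thaliana. They are 37 loci of the 27086 in the deposited tables, taken by locus identifier: 4 Rubisco small subunits and Rubisco activase, 15 further Calvin cycle enzymes, 3 CP12 regulators, 2 carbonic anhydrases and 12 photorespiration enzymes. Each was present in the tables, and each reached an average of at least 1 FPKM in the 10 libraries (fragments scaled to transcript length and to the fragments mapped), so that 37 of 37 were tested among 19460 loci. The rule names loci and uses no measured value. The members were, however, chosen with earlier results of these data known, so the shares called among them are a description.

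RNA came from whole seedlings of ecotype Col-0 at 10 days after germination (DAG), with 2 libraries for each of 5 genotypes: the wild type (WT), atbmi1a and atbmi1b as single mutants, a double mutant called strong (atbmi1ab_strong) and the triple mutant atbmi1abc. The genes mutated, AtBMI1A, AtBMI1B and AtBMI1C, encode RING-finger subunits of Polycomb repressive complex 1. That complex ubiquitinates histone H2A and helps to hold developmental genes in a repressed state. The labels name no allele and do not say that replicate libraries come from different plants or cultures; p-values thus reflect how far replicate libraries differ, a difference that may be technical.

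The Calvin cycle fixes CO2 in the chloroplast stroma. Rubisco joins CO2 to ribulose bisphosphate, a reducing phase (PGK, GAPDH) turns the product into triose phosphate, and a regenerating phase (aldolase, phosphatases, transketolase, PRK) rebuilds the acceptor. Rubisco also accepts oxygen, and photorespiration then recycles the resulting phosphoglycolate through chloroplast, peroxisome and mitochondrion, with release of CO2 and ammonia. In green leaves these transcripts are among the most abundant of the nuclear genome and are induced by light.

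The members by role are as follows. The Rubisco genes are RBCS1A (AT1G67090), RBCS1B (AT5G38430), RBCS2B (AT5G38420), RBCS3B (AT5G38410) and RCA (AT2G39730). The cycle enzymes are PGK1 (AT3G12780), PGK2 (AT1G56190), GAPA (AT3G26650), GAPA-2 (AT1G12900), GAPB (AT1G42970), TIM (AT2G21170), FBA1 (AT2G21330), FBA2 (AT4G38970), HCEF1 (AT3G54050), SBPASE (AT3G55800), TKL1 (AT3G60750), TKL2 (AT2G45290), RPE (AT5G61410), RPI3 (AT3G04790) and PRK (AT1G32060). CP12-1 (AT2G47400), CP12-2 (AT3G62410), CP12-3 (AT1G76560), CA1 (AT3G01500) and CA2 (AT5G14740) complete the cycle group. The photorespiration genes are GOX1 (AT3G14420), GOX2 (AT3G14415), GGT1 (AT1G23310), AGT1 (AT2G13360), GLDP1 (AT4G33010), GLDP2 (AT2G26080), GLDT (AT1G11860), GLDH1 (AT2G35370), GLDH3 (AT1G32470), SHM1 (AT4G37930), HPR1 (AT1G68010) and GLYK (AT1G80380).

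The 4 Rubisco small-subunit genes, on which much of the signal rests, are similar copies. Those on chromosome 5 are closest, 94.1% to 97.3% identical to each other in coding sequence. RBCS1A lies alone on chromosome 1 (25048158 to 25049667), while RBCS3B (15376988 to 15378642), RBCS2B (15380907 to 15382071) and RBCS1B (15383167 to 15385320) stand in tandem on the minus strand of chromosome 5, 2264 and 1095 bases apart (RefSeq TAIR10.1). The first 120 bases of each coding sequence, which encode the start of the chloroplast transit peptide, are shown here. They carry some of the sites that tell the copies apart. Capitals mark the 25 positions at which at least 1 copy differs.
RBCS1A: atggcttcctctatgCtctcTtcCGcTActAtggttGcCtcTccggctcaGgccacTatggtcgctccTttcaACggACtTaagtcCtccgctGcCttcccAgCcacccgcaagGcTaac
RBCS1B: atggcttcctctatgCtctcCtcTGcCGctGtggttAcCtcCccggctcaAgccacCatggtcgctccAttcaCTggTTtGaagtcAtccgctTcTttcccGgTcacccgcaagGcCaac
RBCS2B: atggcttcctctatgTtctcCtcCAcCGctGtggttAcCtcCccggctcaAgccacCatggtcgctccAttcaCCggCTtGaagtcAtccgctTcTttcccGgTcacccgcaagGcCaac
RBCS3B: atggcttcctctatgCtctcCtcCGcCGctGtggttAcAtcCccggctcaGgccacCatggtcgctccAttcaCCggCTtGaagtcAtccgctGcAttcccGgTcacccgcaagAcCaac
In this stretch RBCS1B and RBCS2B each differed from RBCS1A at 21 positions and RBCS3B at 19. Over the whole coding sequence RBCS1A was 87.7% to 90.1% identical to the others, RBCS1B and RBCS2B were 97.3% identical, and the longest run shared by RBCS1B and RBCS3B was 230 bases. How the authors assigned reads that fit several copies is not given in the sources used here, so the split among the chromosome 5 copies is uncertain.

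Across the series, FPKM sums per library ran from 792416 to 990295, and read depth is unknown because the files hold no counts. In the libraries labelled atbmi1a, AtBMI1A was higher than in WT, at 30.1 ± 4.7 against 6.50 ± 0.58 FPKM (mean ± SD, n = 2), so the label is not borne out by that gene; AtBMI1A was also not lower in the libraries labelled atbmi1ab_strong (8.54 ± 0.92) and atbmi1abc (12.02 ± 2.42). AtBMI1B stood at 6.10 ± 0.34 FPKM in WT, 0.145 ± 0.053 in atbmi1b, 1.80 ± 0.15 in atbmi1ab_strong and 3.77 ± 0.18 in atbmi1abc. AtBMI1C was 0.0906 ± 0.0636 in WT, 3.32 ± 0.14 in atbmi1ab_strong and 3.69 ± 0.93 in atbmi1abc. Genotype names below therefore mean libraries as labelled, and every direction is drawn on that basis. Markers moved with genotype too. The summed FPKM of 8 seed markers was 37.3 and 42.5 in WT, 31162 and 37010 in atbmi1ab_strong and 59425 and 78489 in atbmi1abc, where 6 and 8 of the 8 were called higher; CRA1 and CRU3 were listed at 0 in both atbmi1ab_strong libraries. In atbmi1a the seed sum was 1703 in replicate 1 and 29.1 in replicate 2. The summed FPKM of 8 root markers was 103 and 105 in WT, 195 and 214 in atbmi1ab_strong, and 191 and 217 in atbmi1abc. Of these markers, 3 of 8 were called higher in each and 4 lower in atbmi1abc. Over all loci, 31.8% were called higher and 32.6% lower in atbmi1ab_strong, and 36.3% higher and 37.7% lower in atbmi1abc. PIN2, SCR and WOX5 carried most of the larger sum. Mean FPKM of PIN2 was 9.49 in WT, 41.0 in atbmi1ab_strong and 98.8 in atbmi1abc, and that of CASP1 was 39.4, 48.7 and 0.066. The sum is thus not a general rise of root markers. Of 10 leaf markers, 8 were called lower and 1 higher in atbmi1ab_strong, and 5 lower and 2 higher in atbmi1abc; their summed FPKM was 221 and 237 in WT, 152 and 170 in atbmi1ab_strong, and 193 and 211 in atbmi1abc, and FAMA, a guard cell regulator, fell from 13.6 and 14.3 FPKM in WT to 0.647 and 0.287 in atbmi1ab_strong. The part of these shifts in the results below was not tested, and in whole seedlings fewer cells of a type and less RNA per cell cannot be told apart.

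The 37 genes held a large share of the transcriptome in WT and single mutants and a small one in the double and triple mutants. Their summed FPKM was 5.21% and 4.91% of the library total in WT, 6.205% and 6.283% in atbmi1a, and 6.26% and 6.70% in atbmi1b. In atbmi1ab_strong it was 0.365% and 0.393%, and in atbmi1abc 0.487% and 0.471%. No library of the double or triple mutant overlapped the others in this share. The role groups differed in how much remained. The summed FPKM of the Rubisco group was 27417 and 28409 in WT and 843 and 919 in atbmi1ab_strong. For the other cycle enzymes it was 8879 and 9223 against 1472 and 1576, and for the carbonic anhydrases 1910 and 2310 against 5.703 and 6.002.

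**Figure D1:**
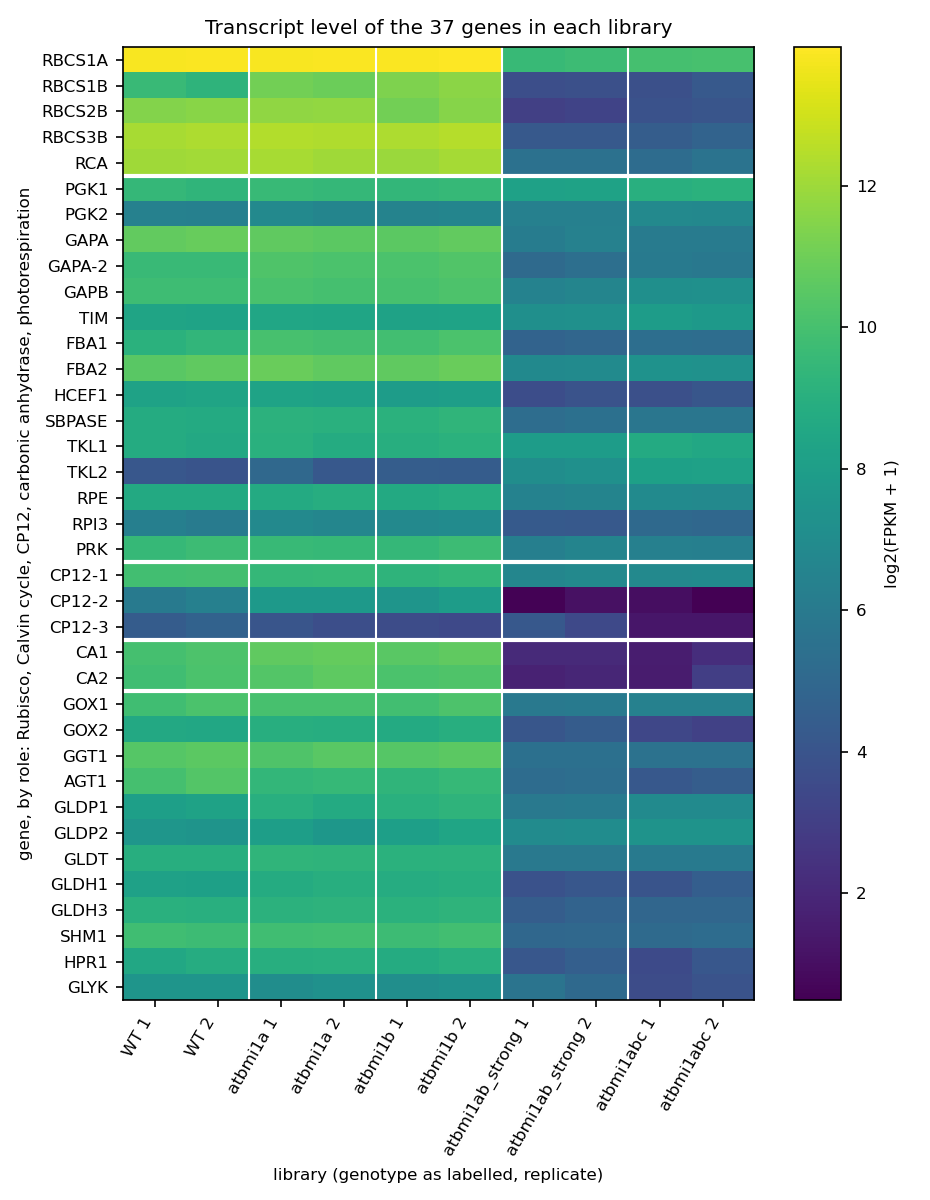
Colour gives the level of each of the 37 genes (rows, grouped by role) in each of the 10 libraries (columns) as log2(FPKM + 1). Within most rows the 6 libraries of WT and single mutants are brighter than the 4 of the double and triple mutants. TKL2 is instead brighter in the double and triple mutants. A few others, such as PGK1, PGK2, TKL1, GLDP2 and CP12-3, kept 45.2% or more of their WT mean in atbmi1ab_strong.

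Double mutant against WT. In the libraries labelled atbmi1ab_strong 35 of the 37 genes were lower than in WT, 1 was higher (TKL2) and 1 was not called (PGK2), by limma's moderated test on log2(FPKM + 1), fitted once over the 10 libraries, with Benjamini-Hochberg adjustment over the 19460 loci. Over all loci tested, 32.6% were called lower and 31.8% higher, so the share of the members called lower (94.6%) stood far above the background and that called higher (2.70%) below it. The median log2 fold change of the members was -4.16, against 0.00 over all loci. The median member kept 5.28% of its WT mean; 17 of 37 kept under 5%, and 4 kept under 1%. The libraries of the compared groups did not overlap for 36 of the 37. The share of all loci without such overlap was not computed, so this count has no background beside it.

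Among the Rubisco genes, RBCS1A, the most abundant small subunit, measured 14842 and 15398 FPKM in WT and 762 and 836 in atbmi1ab_strong (log2 fold change -4.24 ± 0.09, SE; adjusted p = 5.36e-08). RBCS2B measured 2833 and 3086 FPKM in WT and 7.195 and 8.330 in atbmi1ab_strong (-8.40 ± 0.14; adjusted p = 4.1e-08). RBCS3B measured 4752 and 5019 FPKM in WT and 18.3 and 17.8 (-8.00 ± 0.10; adjusted p = 3.7e-08). Thus RBCS1A kept 5.28% of its WT mean, whereas RBCS2B kept 0.262% and RBCS3B 0.370%. RBCS1B fell from 777 and 611 FPKM to 12.1 and 12.5 (-5.70 ± 0.18; adjusted p = 1.65e-07). RCA, the activase that clears inhibitory sugar phosphates from Rubisco, fell from 4213 and 4296 FPKM to 43.9 and 44.7 (-6.55 ± 0.13; adjusted p = 4.97e-08). As a share of the summed FPKM of the 4 small-subunit genes, RBCS1A held 63.9% ± 0.1 in WT and 95.4% ± 0.2 in atbmi1ab_strong (SD, n = 2), and the chromosome 5 copies together supplied the rest.

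**Figure D2:**
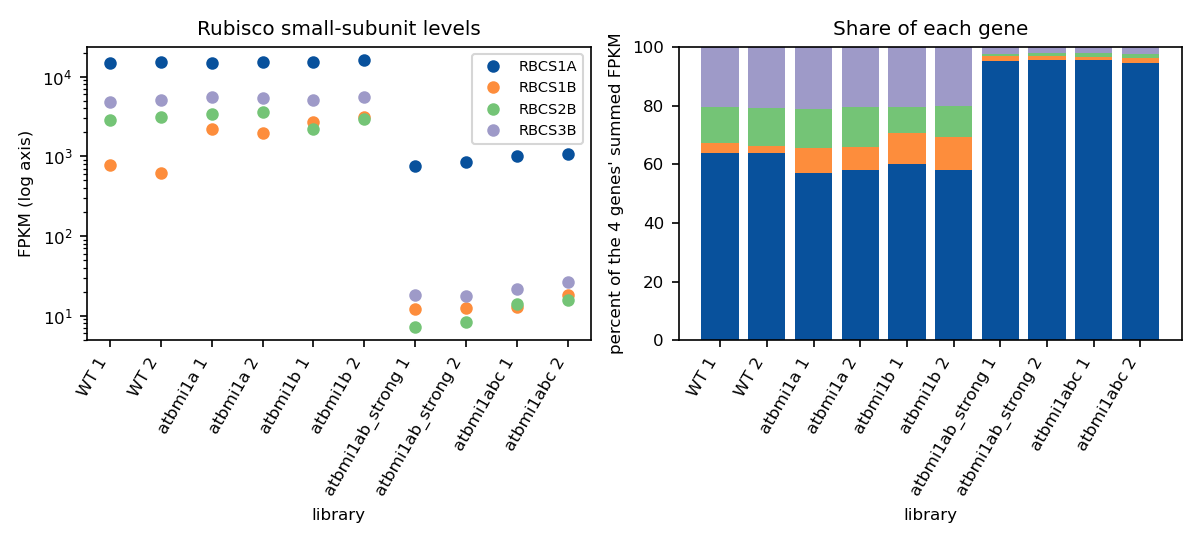
Left, FPKM of the 4 Rubisco small-subunit genes in each library on a log axis; right, each gene's percent of their summed FPKM. RBCS1A holds 57.1% to 64.0% of the sum in WT and the single mutants and 94.6% to 95.6% in the double and triple mutants, and RBCS1B is higher in the single mutants than in WT.

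The large subunit of Rubisco is encoded in the chloroplast genome by RBCL. It was listed at 105 and 912 FPKM in the WT libraries, and at 38.2 and 15.1 in atbmi1a, 10.2 and 16.3 in atbmi1b, 9.65 and 4.47 in atbmi1ab_strong, and 1.57 and 1.55 in atbmi1abc. The WT libraries were far apart, and in them the loci of the chloroplast genome took up 0.744% and 2.24% of summed FPKM, against at most 0.240% elsewhere. Levels of RBCL and of the nuclear small subunits therefore cannot be set against each other here.

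In the Calvin cycle after Rubisco, 13 of 15 genes fell in atbmi1ab_strong. The reducing and regenerating enzymes GAPA, GAPA-2, HCEF1 (the plastid fructose bisphosphatase), FBA1 and FBA2 (plastid aldolases), GAPB, SBPASE (sedoheptulose bisphosphatase) and PRK (phosphoribulokinase) lay between 4.16% and 10.99% of their WT means. GAPA, for example, measured 1662 and 1794 FPKM in WT and 69.9 and 83.5 in atbmi1ab_strong, and PRK, which makes the CO2 acceptor, 720 and 851 against 78.9 and 93.7. A second set kept more of its transcript. RPE, the epimerase, kept 21.97% and RPI3, the pentose phosphate isomerase, 25.3%; PGK1 and TIM (triose phosphate isomerase) kept 45.2% and 45.5%, and TKL1 kept 59.6%. The value of PGK1 belongs to a merged row that also holds the neighbouring gene SDRB. PGK2, a second plastid phosphoglycerate kinase, measured 85.4 and 81.3 FPKM in WT and 82.2 and 81.6 in atbmi1ab_strong (-0.02 ± 0.09; adjusted p = 0.819).

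TKL2, a second transketolase, moved against the rest. It measured 16.5 and 14.8 FPKM in WT, 136 and 152 in atbmi1ab_strong and 286 and 292 in atbmi1abc, so the groups did not overlap. It rose by 3.12 ± 0.23 on the log2 scale in the double mutant (adjusted p = 1.16e-05) and 4.12 ± 0.23 in the triple mutant (adjusted p = 1.65e-06). Its share of the summed FPKM of both transketolases was 3.67% in WT, 36.99% ± 1.52 in atbmi1ab_strong and 42.1% ± 2.2 in atbmi1abc. The TKL1 and TKL2 coding sequences, both 2226 bases long, were 84.6% identical.

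The carbonic anhydrases CA1 and CA2, which interconvert CO2 and bicarbonate, showed some of the deepest losses. CA1 measured 1012 and 1176 FPKM in WT and 3.29 and 3.22 in atbmi1ab_strong (-8.00 ± 0.20; adjusted p = 6.01e-08). CA2 measured 898 and 1134 FPKM in WT and 2.41 and 2.78 in atbmi1ab_strong (-8.14 ± 0.40; adjusted p = 1.48e-06). They kept 0.298% and 0.255% of the WT mean. Among the CP12 proteins, which bind GAPDH and PRK into an inactive complex in the dark, CP12-2 fell from 63.0 and 81.9 FPKM to 0.477 and 1.16 (-5.35 ± 0.25; adjusted p = 1.08e-06). CP12-1, the most abundant of them, fell from 930 and 988 FPKM to 101 and 113, which is 11.2% of the WT mean. CP12-3 was 20.1 and 25.6 FPKM in WT and 17.6 and 10.08 in atbmi1ab_strong (-0.72 ± 0.24; adjusted p = 0.0281); it was not called without WT replicate 2 (adjusted p = 0.155) or without atbmi1ab_strong replicate 2 (adjusted p = 0.159), and with the 4 single-mutant libraries as the reference the difference was 0.14 in the other direction (adjusted p = 0.586).

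All 12 photorespiration genes were lower in atbmi1ab_strong than in WT. GGT1, the peroxisomal glutamate:glyoxylate aminotransferase, measured 1373 and 1520 FPKM in WT and 43.1 and 42.6 in the double mutant (-5.04 ± 0.10; adjusted p = 5.36e-08). AGT1, the serine:glyoxylate aminotransferase, measured 1027 and 1292 against 37.3 and 40.02 (-4.86 ± 0.14; adjusted p = 1.25e-07). SHM1, the mitochondrial serine hydroxymethyltransferase, measured 901 and 855 against 30.1 and 32.5 (-4.77 ± 0.09; adjusted p = 4.73e-08). The glycolate oxidases GOX1 and GOX2, HPR1 (hydroxypyruvate reductase), and GLDH1 and GLDH3 (H proteins of the glycine decarboxylase) kept between 4.57% and 6.19% of WT. The glycine decarboxylase subunits were thus uneven: GLDT, its T protein, kept 12.3%, and of the P proteins GLDP1 kept 21.8% and GLDP2 70.0%. GLDP2 measured 187 and 176 FPKM in WT and 124 and 130 in atbmi1ab_strong (-0.51 ± 0.14; adjusted p = 0.0143), not called without WT replicate 1 (adjusted p = 0.0731) or without atbmi1ab_strong replicate 1 (adjusted p = 0.0683). GLYK, glycerate kinase, which returns glycerate to the cycle, was 182 and 179 FPKM in WT and 50.04 and 33.1 in the double mutant (-2.12 ± 0.19; adjusted p = 3.05e-05). GOX2 (chromosome 3, 4818251 to 4821013) ends 377 bases before GOX1 begins, and their coding sequences are 90.9% identical, so reads can be split between them.

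Triple mutant against WT. In the libraries labelled atbmi1abc, 33 of the 37 genes were lower than in WT and 2 were higher, TKL2 and PGK2; TKL1 and GLDP2 were not called. Over all loci 37.7% were called lower and 36.3% higher, beside 89.2% and 5.41% of the members. The median log2 fold change of the members was -3.73, and the median member kept 6.86% of its WT mean. These comparisons share the WT libraries with those of the double mutant and are not independent of them.

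RBCS1A measured 1017 and 1059 FPKM in atbmi1abc (-3.86 ± 0.09; adjusted p = 4.71e-08), RBCS2B 13.98 and 15.73 (-7.55 ± 0.14; adjusted p = 3.13e-08), and RBCS3B 21.3 and 26.1 (-7.63 ± 0.10; adjusted p = 1.96e-08). RBCS1B measured 12.7 and 18.3 FPKM (-5.41 ± 0.18) and RCA 36.8 and 47.5 (-6.64 ± 0.13). All 4 small-subunit genes and the activase were therefore below every WT library. CA1 was at 1.94 and 3.76 FPKM (-8.19 ± 0.20; adjusted p = 4.71e-08) and CP12-2 at 0.950 and 0.399 (-5.46 ± 0.25; adjusted p = 5.87e-07). CA2 was at 1.86 and 7.05 FPKM (-7.72 ± 0.40; adjusted p = 1.17e-06), replicates that differ by a ratio of 3.80, the largest of any member in any genotype. At the other end, PGK2 was 113 and 109 FPKM against 85.4 and 81.3 in WT (0.41 ± 0.09; adjusted p = 0.00278), but with the single mutants as reference it was not called (0.15; adjusted p = 0.0947). PGK1 was 501 and 538 FPKM against 703 and 623 (-0.35 ± 0.09; adjusted p = 0.00827), not called without WT replicate 1 (adjusted p = 0.0606) or without atbmi1abc replicate 1 (adjusted p = 0.0569). TKL1 was 419 and 377 FPKM against 433 and 389 in WT, and the libraries overlapped (-0.05 ± 0.12; adjusted p = 0.729); against the single mutants it was called lower (-0.32; adjusted p = 0.0207).

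In photorespiration 11 of 12 genes fell in atbmi1abc. AGT1 measured 17.1 and 21.0 FPKM (-5.85 ± 0.14; adjusted p = 4.76e-08), GOX2 9.27 and 7.66 (-5.37 ± 0.13; adjusted p = 5.17e-08) and GGT1 46.9 and 46.8 (-4.92 ± 0.10; adjusted p = 3.47e-08). GLDP2 measured 172 and 167 FPKM against 187 and 176 in WT (-0.10 ± 0.14; adjusted p = 0.563) and was called lower against the single mutants (-0.63; adjusted p = 0.00202), and GLDP1 122 and 120 against 273 and 301 (-1.24 ± 0.12; adjusted p = 2.9e-05). GLDT stood at 61.9 and 63.0 FPKM (-2.94 ± 0.06; adjusted p = 3.88e-08).

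**Figure D3:**
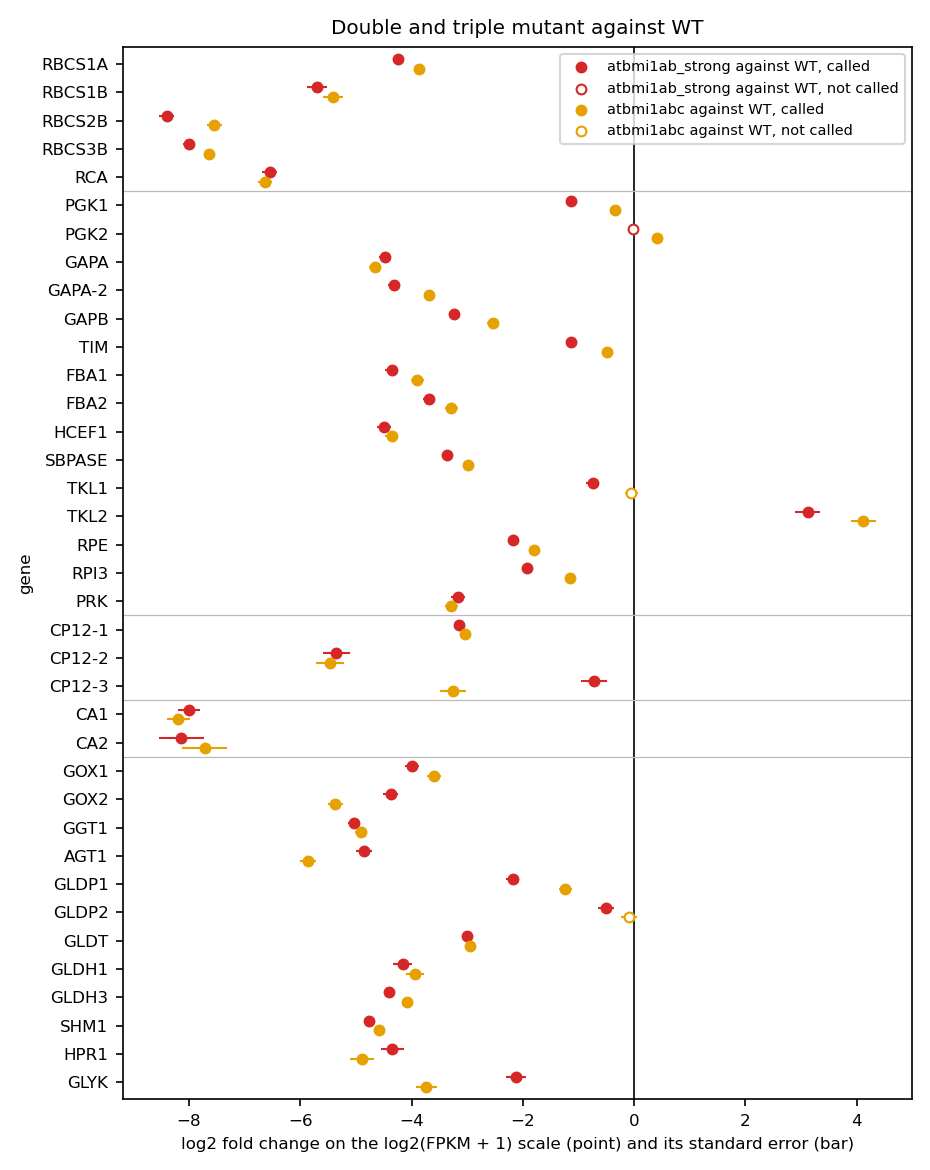
Points are log2 fold changes against WT of atbmi1ab_strong (red) and atbmi1abc (yellow) for each gene, bars are standard errors, and open points were not called. Most lie between -2 and -8, and TKL2 is the gene far to the right, at 3.12 and 4.12.

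Genes that work with the members were tested from lists. Over all loci, 32.6% were called lower and 31.8% higher in atbmi1ab_strong, and 37.7% lower and 36.3% higher in atbmi1abc. Of 13 genes for Rubisco assembly and for thioredoxin control of the cycle, 13 fell in atbmi1ab_strong and 13 in atbmi1abc, with median log2 fold changes of -1.99 and -1.92. The chaperone-like BSD2, which holds the large subunit during assembly, fell from 217 and 211 FPKM in WT to 10.2 and 13.6 in atbmi1ab_strong (-4.08 ± 0.12; adjusted p = 1.24e-07). CPN60B, a subunit of the plastid chaperonin, fell from 257 and 204 FPKM to 22.1 and 22.7 (-3.30 ± 0.11; adjusted p = 2.42e-07). Of 7 genes for triose phosphate export, sucrose and starch, 3 fell and 4 rose in each of the double and triple mutants (42.9% and 57.1%). APE2, the triose phosphate translocator of the chloroplast envelope, fell from 722 and 797 FPKM in WT to 95.6 and 93.5 in atbmi1ab_strong (-2.99 ± 0.07; adjusted p = 5.79e-08), whereas ADG1, the small subunit of ADP-glucose pyrophosphorylase for starch synthesis, rose from 88.3 and 78.0 to 255 and 250 in atbmi1abc (1.59 ± 0.10; adjusted p = 3.36e-06).

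Other genes of photorespiration divided. Of 17 listed, 15 were tested; 9 fell and 6 rose in atbmi1ab_strong, and 7 fell and 6 rose in atbmi1abc. PLGG1, the glycolate and glycerate transporter of the chloroplast envelope, fell from 99.99 and 96.6 FPKM in WT to 2.41 and 2.68 in atbmi1ab_strong (-4.81 ± 0.10; adjusted p = 5.08e-08). GS2, the chloroplast glutamine synthetase that recovers photorespiratory ammonia, fell from 1213 and 1051 FPKM to 49.3 and 48.2 (-4.51 ± 0.10; adjusted p = 5.36e-08). PMDH2, a peroxisomal malate dehydrogenase, fell from 544 and 636 FPKM to 10.7 and 11.3 (-5.62 ± 0.13; adjusted p = 5.42e-08). In the other direction, GGT2 rose from 14.5 and 13.2 FPKM to 81.4 and 95.7 (2.59 ± 0.11; adjusted p = 8.62e-07) and GOX3 from 5.18 and 6.95 to 31.6 and 35.9 (2.31 ± 0.18; adjusted p = 1.47e-05). The phosphoglycolate phosphatase genes PGLP1 and PGLP1B, whose coding sequences are 100% identical over 1089 bases, stayed under 2.5 FPKM in each library and were not tested. How reads that fit both copies were assigned is not given, so these values cannot be read as a low transcript level.

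Several enzymes have a second isoform outside the member set, and the mix of isoforms differed between genotypes. The isoforms compared were chosen with values in view, so the shares are a description. As a share of the summed FPKM of each enzyme's listed genes, GGT2 made up 0.952% ± 0.126 of the glutamate:glyoxylate aminotransferase transcript in WT, 67.3% ± 2.7 in atbmi1ab_strong and 73.9% ± 0.2 in atbmi1abc (SD, n = 2 each). SHM2 made up 2.79% ± 0.16 in WT and 65.4% ± 1.2 and 73.4% ± 2.6 in the double and triple mutants. The glycine decarboxylase H protein GLDH2 went from 8.49% ± 0.52 to 80.2% ± 4.3 and 78.3% ± 1.8. GOX3 went from 0.426% ± 0.050 of the glycolate oxidase sum to 29.3% ± 0.3 and 46.3% ± 1.3, PMDH1 from 5.88% ± 1.27 of the peroxisomal malate dehydrogenase sum to 89.6% ± 0.5 and 92.7% ± 1.7, and HPR2, a cytosolic hydroxypyruvate reductase, from 12.4% ± 0.7 to 69.7% ± 3.4 and 82.3% ± 4.4. The levels behind these shares differed in kind. GLDH2 measured 71.5 and 77.2 FPKM in WT and 173 and 143 in atbmi1ab_strong (1.07 ± 0.11; adjusted p = 7.96e-05), and SHM2 26.9 and 23.5 against 59.3 and 59.1 (1.204 ± 0.12; adjusted p = 7.17e-05). HPR2, by contrast, was 56.6 and 61.6 FPKM in WT and 44.0 and 46.7 in atbmi1ab_strong (-0.37 ± 0.08; adjusted p = 0.00421), so its share was larger although its level was lower.

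For the Calvin cycle, the corresponding enzymes of glycolysis and other counterparts were 20 listed genes, of which 12 rose and 6 fell in atbmi1ab_strong, and 13 rose and 5 fell in atbmi1abc (medians 0.54 and 1.17). The cytosolic GAPDH genes GAPC1 and GAPC2 together made up 26.7% ± 1.1 of the summed FPKM of the listed GAPDH genes in WT, 90.0% ± 1.3 in atbmi1ab_strong and 92.0% ± 0.4 in atbmi1abc. The aldolase FBA3 went from 6.38% ± 0.30 of the plastid aldolase sum to 74.6% ± 2.3 and 79.7% ± 1.0. Its own level was 143 and 150 FPKM in WT, 459 and 411 in atbmi1ab_strong and 752 and 798 in atbmi1abc. The cytosolic PGK3 went from 18.6% ± 0.1 of the PGK sum to 48.2% ± 1.4 and 49.0% ± 0.7, and cytosolic TPI from 56.6% ± 0.7 of the triose phosphate isomerase sum to 84.8% ± 1.2 and 84.9% ± 1.6. Beside CA1 and CA2, the carbonic anhydrase BCA6 fell from 77.1 and 80.4 FPKM to 15.6 and 12.3 in atbmi1ab_strong (-2.42 ± 0.12; adjusted p = 1.62e-06). The other 3 listed carbonic anhydrases differed among themselves. BCA3 rose from 4.53 and 3.94 FPKM in WT to 45.5 and 38.6 in atbmi1ab_strong (3.04 ± 0.27; adjusted p = 3.52e-05) and stood at 55.9 and 76.0 in atbmi1abc. BCA4 fell (-1.14 ± 0.12; adjusted p = 7.71e-05), and BCA5 was not called (-0.10 ± 0.07; adjusted p = 0.263).

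**Figure D4:**
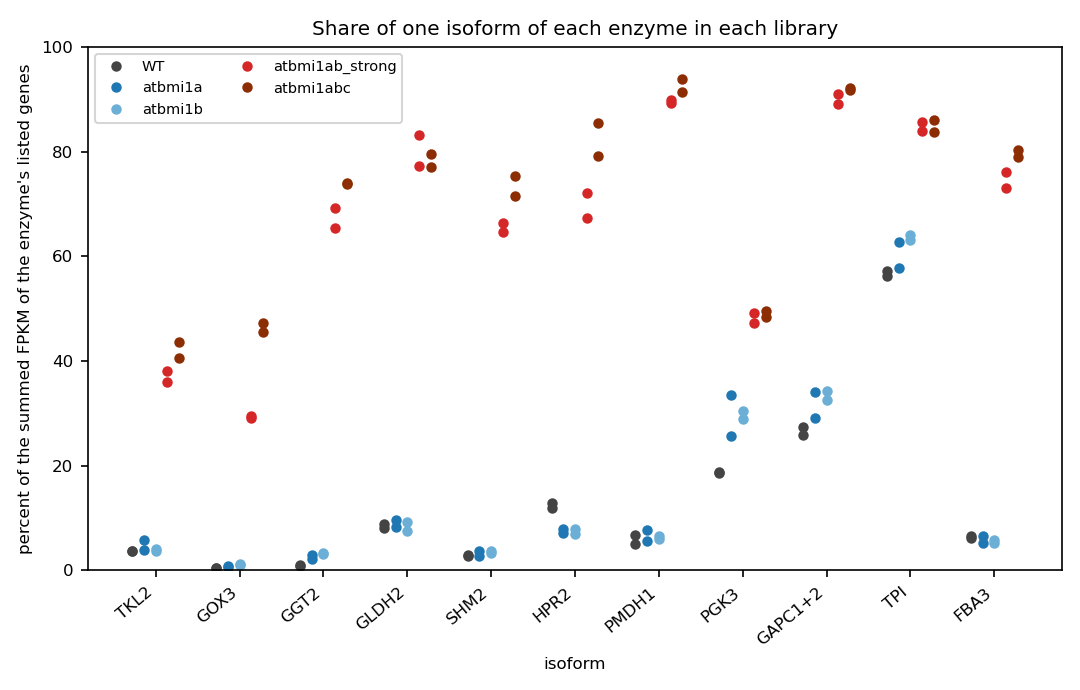
Each point is 1 library; its height is the percent of an enzyme's summed FPKM that comes from the named isoform (TKL2, 6 isoforms of photorespiratory enzymes, and glycolytic or other counterparts of cycle enzymes). The WT and single-mutant libraries lie below those of the double and triple mutants for each isoform shown, for example GGT2 at 0.863% to 3.19% against 65.4% to 74.1%.

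Single mutants against WT. In the libraries labelled atbmi1a, 11 of the 37 genes were higher than in WT and 2 were lower; over all loci 17.0% were called higher and 18.4% lower, beside 29.7% and 5.41% of the members. In those labelled atbmi1b, 11 were higher and 3 lower, where the background was 21.3% higher and 24.1% lower, beside 29.7% and 8.11% of the members. The median log2 fold changes of the members were 0.22 and 0.17, against 0.02 and -0.01 over all loci. The counts moved with single libraries: for atbmi1a, 7 members were called higher without WT replicate 1, 7 without WT replicate 2, and 0 lower without the latter. For atbmi1b, 7 were called higher without atbmi1b replicate 2. Counts over all loci moved with single libraries too. The shares of all loci given here come from the fit of all libraries and are no background for counts with a library left out. Both comparisons use the same WT libraries.

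Of the 5 Rubisco genes, RBCS1B was the 1 called in the single mutants. It measured 777 and 611 FPKM in WT, 2166 and 1955 in atbmi1a and 2670 and 3106 in atbmi1b, with no overlap between single mutants and WT. The log2 fold change was 1.58 ± 0.18 in atbmi1a (adjusted p = 0.000884) and 2.06 ± 0.18 in atbmi1b (adjusted p = 0.000125). Its share of the small-subunit sum was 2.94% ± 0.58 in WT, 7.98% ± 0.58 in atbmi1a and 10.9% ± 0.5 in atbmi1b. Because the split among the chromosome 5 copies is uncertain, the size of this rise is uncertain too. RBCS2B differed from WT by 0.23 ± 0.14 in atbmi1a (adjusted p = 0.223) and -0.21 ± 0.14 in atbmi1b (adjusted p = 0.258). RBCS1A, at 14753 and 15030 FPKM in atbmi1a and 15209 and 15983 in atbmi1b, differed from WT by -0.02 ± 0.09 (adjusted p = 0.876) and 0.04 ± 0.09 (adjusted p = 0.74). Under quantile normalization, which replaces the highest values by their mean across libraries, RBCS1A was called 0.83 higher in each single mutant (adjusted p = 0.0141 and 0.00997), and RBCS2B, RBCS3B and RCA were also called higher in each, by 0.94 to 1.503.

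In the cycle with CP12 and the carbonic anhydrases, CP12-2 had the highest fold change in both single mutants, and CP12-1 was lower in both. CP12-2 measured 63.0 and 81.9 FPKM in WT, 220 and 220 in atbmi1a and 179 and 245 in atbmi1b, a rise of 1.60 ± 0.25 (adjusted p = 0.00284) and 1.53 ± 0.25 (adjusted p = 0.00185). CP12-1 went the other way, from 930 and 988 FPKM in WT to 704 and 720 in atbmi1a (-0.43 ± 0.09; adjusted p = 0.00799) and 618 and 667 in atbmi1b (-0.58 ± 0.09; adjusted p = 0.00132). It was no longer called in atbmi1a when WT replicate 2 was left out (adjusted p = 0.0549). CP12-3 was 15.2 and 12.3 FPKM in atbmi1a (-0.69 ± 0.24; adjusted p = 0.0571) and 11.2 and 10.0 in atbmi1b (-1.03 ± 0.24; adjusted p = 0.00935), the latter not called without WT replicate 2 (adjusted p = 0.0662) or without atbmi1b replicate 2 (adjusted p = 0.058). FBA1 rose from 546 and 649 FPKM to 1044 and 994 in atbmi1a (0.77 ± 0.12; adjusted p = 0.00257) and to 958 and 1121 in atbmi1b (0.80 ± 0.12; adjusted p = 0.00117), while its paralogue FBA2 was not called in either. RPI3 rose from 77.1 and 68.3 FPKM to 114 and 125 in atbmi1b (0.71 ± 0.10; adjusted p = 0.000808). GAPA-2 measured 785 and 778 FPKM in WT, 1228 and 1135 in atbmi1a and 1129 and 1245 in atbmi1b (0.59 ± 0.10, adjusted p = 0.00404, and 0.60 ± 0.10, adjusted p = 0.00221), whereas GAPA was not called, at -0.12 ± 0.11 and -0.10 ± 0.11, although quantile normalization called it 0.49 higher in atbmi1b. HCEF1 was 245 and 266 FPKM in atbmi1b against 308 and 321 in WT (-0.30 ± 0.12; adjusted p = 0.0803). CA1 measured 1661 and 1778 FPKM in atbmi1a against 1012 and 1176 in WT (0.66 ± 0.20; adjusted p = 0.0384), a call lost on leaving out any 1 of the WT or atbmi1a libraries (adjusted p = 0.069 to 0.172).

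In photorespiration GLDP1 rose from 273 and 301 FPKM in WT to 512 and 419 in atbmi1a (0.69 ± 0.12; adjusted p = 0.00391) and 534 and 614 in atbmi1b (1.00 ± 0.12; adjusted p = 0.000405). GLDH1 rose from 292 and 281 FPKM to 436 and 488 in atbmi1a (0.69 ± 0.17; adjusted p = 0.0157) and 461 and 483 in atbmi1b (0.72 ± 0.17; adjusted p = 0.0093). Both GLDH1 calls were lost on leaving out single libraries: in atbmi1a without WT replicate 1 (adjusted p = 0.0614), WT replicate 2 (0.0811) or atbmi1a replicate 2 (0.0568), and in atbmi1b without WT replicate 2 (0.0535) or atbmi1b replicate 2 (0.0553). GLDP2 was called in atbmi1b, at 277 and 336 FPKM (0.75 ± 0.14; adjusted p = 0.00407), and GLDT in atbmi1a, at 626 and 612 FPKM against 482 and 491 in WT (0.35 ± 0.06; adjusted p = 0.00601), a call lost when the WT and atbmi1a libraries were fitted alone (adjusted p = 0.0669). AGT1 fell, from 1027 and 1292 FPKM to 673 and 742 in atbmi1a (-0.70 ± 0.14; adjusted p = 0.00855) and 627 and 729 in atbmi1b (-0.77 ± 0.14; adjusted p = 0.0038). It too was not called in atbmi1a when WT replicate 2 was left out (adjusted p = 0.0566). GLYK stood at 137 and 155 FPKM in atbmi1a and 138 and 156 in atbmi1b against 182 and 179 in WT and was not called (adjusted p = 0.23 and 0.229). With only the compared libraries fitted, SBPASE, PGK2, CP12-1 and AGT1 were not called in atbmi1a either (adjusted p = 0.0775, 0.105, 0.0556 and 0.0539), nor GLDT in atbmi1b (adjusted p = 0.0673). Other calls among the higher genes rested on single libraries as well. In atbmi1a, SBPASE (0.34 ± 0.10; adjusted p = 0.0273) and PGK2 (0.34 ± 0.09; adjusted p = 0.0186) were not called without WT replicate 1 (0.0769 and 0.0546), WT replicate 2 (0.126 and 0.0994) or atbmi1a replicate 1 (0.0904 and 0.0649). In atbmi1b, GAPB (0.34 ± 0.10; adjusted p = 0.0206) was not called without WT replicate 1 (0.0714), WT replicate 2 (0.0893) or atbmi1b replicate 2 (0.142), SBPASE without atbmi1b replicate 2 (0.0555), and GLDT without any 1 of the 4 libraries compared (0.0772 to 0.194).

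**Figure D5:**
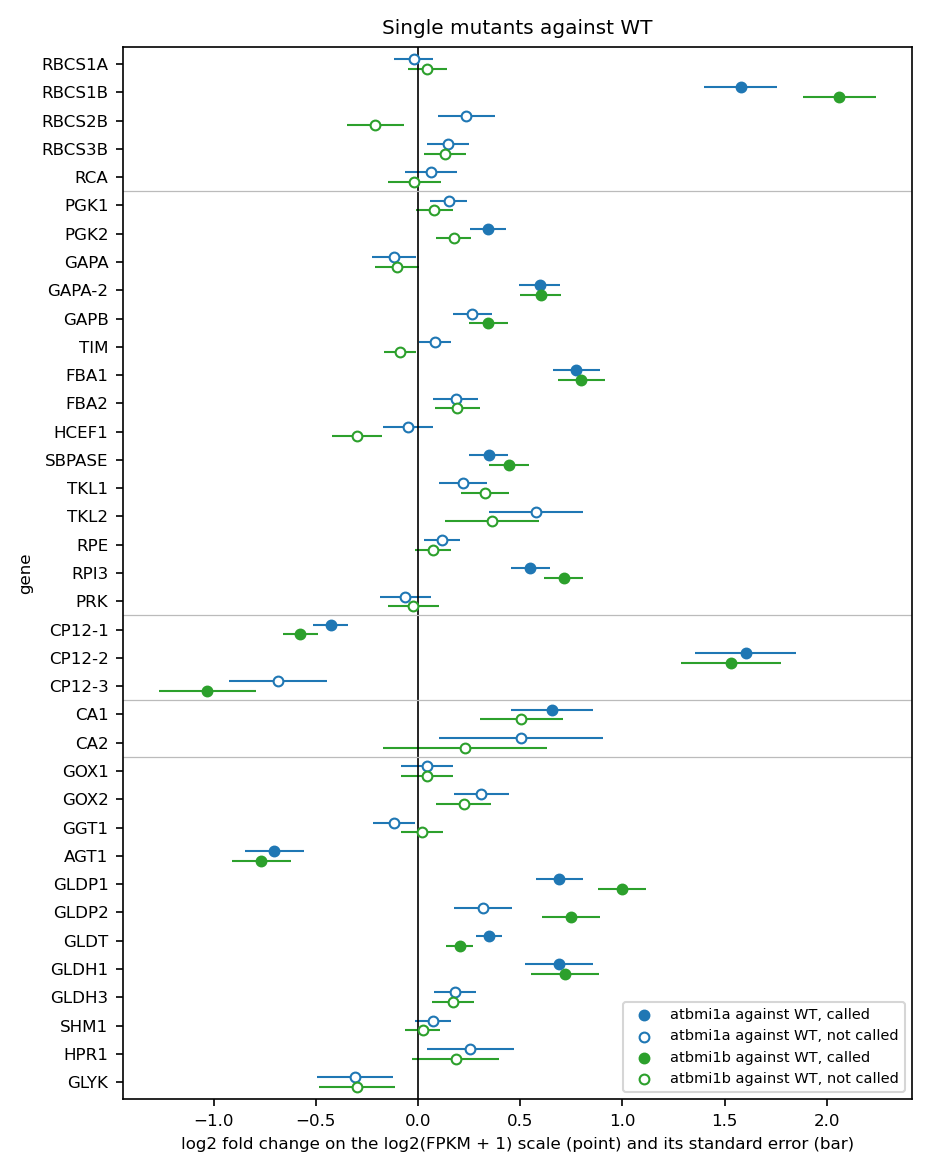
Points are log2 fold changes against WT of atbmi1a (blue) and atbmi1b (green) for each gene, bars are standard errors, and open points were not called. Most genes lie within 1 of 0; RBCS1B and CP12-2 stand to the right, at 1.58 and 1.60 in atbmi1a, and AGT1, CP12-1 and CP12-3 to the left.

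Between the single mutants no member was called higher or lower in atbmi1b against atbmi1a by limma, where 3.96% of all loci were called higher and 3.49% lower. At an unadjusted p under 0.05 there were 4 of 37 (RBCS1B, RBCS2B, GLDP1 and GLDP2). The share of all loci under that unadjusted threshold was not computed, so no excess among the members can be read from this count. Fold changes lay between -0.44 and 0.48 on the log2 scale. Other settings called up to 2: without atbmi1a replicate 1, GLDP1 and GLDP2 were higher in atbmi1b (adjusted p = 0.0482 and 0.024), and without atbmi1a replicate 2, TKL2 was lower (adjusted p = 0.015).

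Triple against double mutant. In atbmi1abc, 19 of 37 members were higher than in atbmi1ab_strong and 4 were lower, where 32.1% of all loci were called higher and 25.2% lower. The median log2 fold change was 0.37 for the members and 0.10 over all loci. With median-of-ratios scaling the calls were 15 higher, and leaving out atbmi1ab_strong replicate 1 or atbmi1abc replicate 2 left 11 and 12. Counts over all loci changed under these settings as well, so the shares above are no background for them. In the main fit the cycle enzymes made up most of the rises, with 12 of 15. TKL2 rose by 1.00 ± 0.23 (adjusted p = 0.00711). PGK1 rose from 294 and 305 FPKM to 501 and 538 (0.79 ± 0.09; adjusted p = 0.000262) and RPI3 from 18.7 and 18.0 to 33.7 and 30.6 (0.77 ± 0.10; adjusted p = 0.000388). RBCS2B rose from 7.195 and 8.330 FPKM to 13.98 and 15.73 (0.86 ± 0.14; adjusted p = 0.00147). The calls of RBCS1A (0.38 ± 0.09; adjusted p = 0.0105) and RBCS3B (0.37 ± 0.10; adjusted p = 0.0181) rested on single libraries: RBCS1A was not called without atbmi1ab_strong replicate 1 (0.052), atbmi1abc replicate 1 (0.0556) or atbmi1abc replicate 2 (0.0914), nor RBCS3B without atbmi1ab_strong replicate 1 (0.0561), atbmi1ab_strong replicate 2 (0.0747) or atbmi1abc replicate 2 (0.127). In photorespiration GLDP1 rose from 60.8 and 64.1 FPKM to 122 and 120 (0.94 ± 0.12; adjusted p = 0.000369). GOX1 (0.39 ± 0.13; adjusted p = 0.0313) and GLDP2 (0.42 ± 0.14; adjusted p = 0.0376) were called higher, but neither was called on leaving out any 1 of the 4 libraries (adjusted p = 0.0666 to 0.132 and 0.0892 to 0.139). FBA1, FBA2, SBPASE and GLDH3 were not called without atbmi1ab_strong replicate 1 either (0.0698, 0.0718, 0.0749 and 0.148); FBA2 and GLDH3 were also not called without atbmi1abc replicate 1 (0.0702 and 0.0888), nor FBA2, SBPASE and GLDH3 without atbmi1abc replicate 2 (0.0548, 0.0537 and 0.0893). CA1 and GAPA were not called at -0.19 ± 0.20 and -0.17 ± 0.11.

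The 4 lower in the triple mutant were CP12-3, GLYK, GOX2 and AGT1. CP12-3 measured 17.6 and 10.08 FPKM in atbmi1ab_strong and 1.498 and 1.467 in atbmi1abc (-2.53 ± 0.24; adjusted p = 9.6e-05). GLYK measured 50.04 and 33.1 FPKM against 11.4 and 14.1 (-1.61 ± 0.19; adjusted p = 0.000278). GOX2 measured 15.8 and 20.2 against 9.27 and 7.66 (-0.999 ± 0.134; adjusted p = 0.000592), whereas its tandem neighbour GOX1 was 61.1 and 65.4 against 83.6 and 82.6. AGT1 measured 37.3 and 40.02 against 17.1 and 21.0 (-0.99 ± 0.14; adjusted p = 0.00086).

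The members' promoters were searched in RefSeq TAIR10.1, over the 250 bases before the annotated gene start and on both strands. The G-box core CACGTG occurred in 6 of 37 promoters (16.2%, against 6.49% of all 27437 promoters of the same length) and the I-box GATAAG in 6 (16.2% against 12.3%), both elements long described in light-regulated genes. The seed-associated RY core CATGCA occurred in 5 (13.5% against 8.43%), those of RBCS1B, TIM, CA1, CA2 and SHM1. The evening element AAATATCT occurred in 0 of 37 (4.79% of all), the telo-box AAACCCTA in 1 (4.49% of all), and TATAAA in 14 (37.8% against 47.4%). A match in this window is a description of sequence and does not show a bound site. The promoters of RBCS2B, which had the lowest log2 fold change in atbmi1ab_strong, and HCEF1 are shown because both hold G-box and I-box letters, in capitals. They are RBCS2B at chr5:15382072-15382321, minus strand, and HCEF1 at chr3:20016587-20016836, plus strand, read in the direction of the gene.
RBCS2B: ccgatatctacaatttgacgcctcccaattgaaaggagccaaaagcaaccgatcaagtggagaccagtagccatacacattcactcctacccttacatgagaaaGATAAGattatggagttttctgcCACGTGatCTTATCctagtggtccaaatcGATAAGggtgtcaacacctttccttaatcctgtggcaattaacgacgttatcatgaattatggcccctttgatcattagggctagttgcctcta
HCEF1: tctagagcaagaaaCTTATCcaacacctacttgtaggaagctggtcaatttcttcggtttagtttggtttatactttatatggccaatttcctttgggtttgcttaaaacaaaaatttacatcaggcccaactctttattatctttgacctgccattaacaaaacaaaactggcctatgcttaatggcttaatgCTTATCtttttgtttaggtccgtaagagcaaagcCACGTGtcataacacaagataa
In RBCS2B the I-box, G-box and I-box letters lie between 146 and 89 bases before the gene start, and CTTATC is the I-box on the other strand. Over the 37 members the median log2 fold change in atbmi1ab_strong against WT was -3.83 for the 6 with a G-box and -4.16 for the other 31, -4.92 for the 6 with an I-box against -3.99 for the other 31, and -5.70 for the 5 with an RY core against -3.84 for the other 32. Neither the G-box nor the I-box letters were found in this window of RBCS1A, RBCS1B or RBCS3B. The windows cover unlike regions, however. The annotated gene start of RBCS1A is at 25049667 and its coding sequence begins at 25049249, against 15382071 and 15381978 in RBCS2B. Bases between gene start and coding sequence were not searched, so absence here does not show that a promoter lacks these letters.

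Across the 37 members, those with higher levels in the single-mutant libraries had lower fold changes in atbmi1ab_strong against WT (Spearman's rho = -0.671, Pearson's r = -0.719, n = 37 genes) and in atbmi1abc (rho = -0.558, r = -0.593). The genes share the same libraries and are not independent replicates, so this is a description. The median member stood at 116.9% of its WT mean in atbmi1a and 112.9% in atbmi1b, and WT is the reference of these fold changes. A negative relation is therefore partly built in. Adding 1 before taking logs also limits the fall of weakly expressed genes. By genotype mean, 26 of the 37 members had their lowest level in atbmi1ab_strong and 10 in atbmi1abc, while 14 had their highest in atbmi1a, 14 in atbmi1b and 7 in WT.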

How the data were processed

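The submitters' processing notes name TopHat, Cufflinks, Cuffdiff and FastQC as the authors' tools and TAIR10 as the build, without versions or options. Per the labels' protocols, total RNA was extracted with a Qiagen kit and made into Illumina libraries. The deposited values are FPKM, read as such from the tools named and from the values, 1 file per library with 27086 loci, of which 270 are merged rows of overlapping genes; depth is unknown, and whether strand was used is not given. Of the members, 11 are overlapped by another annotated gene, 9 of them by a protein-coding one, so their values can hold reads of a neighbour.

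Because the files hold FPKM, limma 3.58.1 (eBayes with trend, R 4.3.3) was used in place of a count test, on log2(FPKM + 1), over 19460 loci averaging at least 1 FPKM, with 1 coefficient per genotype, all 10 libraries, no covariate and 5 residual degrees of freedom. Because 1 was added before taking logs, fold changes of weakly expressed genes come out too small. Tests are two-sided, p-values were Benjamini-Hochberg adjusted over all loci tested, and a call is an adjusted p under 0.05. The 6 comparisons were each mutant with WT, atbmi1b with atbmi1a, and atbmi1abc with atbmi1ab_strong. The fit was also run on simulated data with independent noise and few changed loci. Far more loci were called in the double and triple mutants, so that run says little about the calls given here. No 2 libraries were identical in 45 pairs.

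Members, gene lists, tests and alternatives were chosen with earlier results of these data known. Values are given per comparison for the 3 members with the highest and the 3 with the lowest fold change of each role group, and for up to 3 called genes per other list with the smallest adjusted p and up to 2 called the other way. RBCL, BCA3, BCA4, BCA5 and the isoform, AtBMI1 and marker values fall outside this rule or were named after their values were seen. Shares of isoforms, sequence identity and motif searches were computed in Python 3.11.15 with pandas 2.3.3 (figures: matplotlib 3.10.9), from the genome and gene models of RefSeq TAIR10.1, which held all 37 members. Alternatives were median-of-ratios scaling, quantile normalization, filters of any value above 0 or a mean of at least 5 FPKM, a pseudocount of 0.1, the replicate number as a block, the compared libraries alone, the single mutants as reference, and leaving out each library in turn.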

Additional observations from a re-analysis of the deposited data

How the results depend on the processing

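In atbmi1ab_strong and atbmi1abc against WT, 34 to 35 and 32 to 35 members were called lower under each alternative run. Of the members called lower there, CP12-3 in atbmi1ab_strong alone changed direction. The depth behind these FPKM values is unknown. With the compared libraries alone, atbmi1a against WT gave 1366 loci higher and 1685 lower (3299 and 3575 in the fit of all libraries) and 8 members higher and 0 lower (11 and 2). The same setting in atbmi1b against WT gave 5 members lower, and atbmi1b against atbmi1a gave 0 loci either way (771 and 679). CP12-3 in atbmi1ab_strong (adjusted p = 0.0509), and RBCS3B and GLDH3 in atbmi1abc against atbmi1ab_strong (0.0686 and 0.087), were not called there either. Quantile normalization called 18 members higher in atbmi1b against WT and 1 in atbmi1b against atbmi1a; it reversed RBCS1A in atbmi1a (0.83), RBCS2B (0.94), RCA (1.503) and GAPA (0.49) in atbmi1b, and CP12-2 in atbmi1abc against atbmi1ab_strong (0.71), and moved the median of all loci in that comparison from 0.10 to 0.22. With the single mutants as reference, 1 member was higher in atbmi1abc and CP12-3 reversed in atbmi1ab_strong (0.14). The causes were not tested. Leaving out each library in turn gave, for atbmi1a against WT, 1725 to 3250 loci higher, 2077 to 3364 lower, 7 to 13 members higher and 0 to 2 lower. For atbmi1b against WT it gave 7 to 10 members higher. For atbmi1b against atbmi1a it gave 87 to 1035 loci higher, 76 to 915 lower, 0 to 2 members higher and 0 to 1 lower. For atbmi1abc against atbmi1ab_strong it gave 11 to 17 members higher. Where 1 library of a group remained, it was assumed to vary like the other groups. Libraries with the same replicate number did not consistently deviate together (correlations of -0.226 to 0.119, 2 of 10 pairs over 0.1). This check cannot show whether any libraries were processed together. The replicate block called 1 member lower in atbmi1b against atbmi1a (RBCS2B, adjusted p = 0.0448) and 13 higher in atbmi1b against WT.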
